A study of Equus caballus with 19 samples.

Results

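Cholesterol and fatty acid synthesis genes were followed in equine tenocytes, the resident cells of tendon, after prolonged exposure to the inflammatory cytokine IL-1β. The set named 32 genes of these pathways, picked out of each deposited table by gene name. They were chosen with earlier results of these data known. Of these, 31 were found among 29196 gene names, and CYP51A1 was not analysed here. All 31 passed the filter on low values in both batches.

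Mammalian cells build cholesterol from acetyl-CoA through the mevalonate pathway to farnesyl diphosphate, and then from squalene through a series of sterol intermediates. The transcription factors SREBF1 and SREBF2 are held in the endoplasmic reticulum with SCAP and INSIG1 while sterols are plentiful, and when sterols fall they are cleaved and switch on the genes of sterol and fatty acid synthesis and of lipoprotein uptake. ABCA1 and ABCG1 export cholesterol from the cell and are classical targets of the oxysterol receptors, the LXRs.

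Wild-type tenocytes from the superficial digital flexor tendon of adult horses were embedded in bovine type I collagen gels in medium with serum and harvested at day 14. The first batch held 5 lines (lines 1 to 5), each as a control gel and as a gel with 1 nM IL-1β. The second batch held 3 other lines (lines 6 to 8), each as a control gel, a gel given 1 nM IL-1β alone, and a gel given the same dose of IL-1β together with 100 ng/ml IL1Ra, the natural antagonist of the IL-1 receptor. Each library came from 1 line under 1 treatment and is called a gel here. The study's methods do not say how many gels were used for a library. No gel with IL1Ra alone was analysed here, and the 8 lines were described as independent. Poly(A) RNA was sequenced, and the values are normalised counts, scaled separately in each batch, so levels are compared only within a batch.

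The normalised counts of a library totalled, in units of 1e6, 43.4 to 49.2 for the first batch and 24.96 to 34.6 for the second, and no pair of libraries held identical values. Of 10 tendon fibroblast markers, 9 were found, and TNMD, a tenocyte marker, was at 0 in every library of the first batch. The other 8 included 7 that fell on adjusted p with IL-1β in the first batch, among them COL1A1, against 14.6% of all genes. DCN had a log2-fold change of 0.73 (limma adjusted p = 0.0626, and 0.00725 with line as a block). In the second batch 7 of the 8 had lower means and none passed on adjusted p. With line as a block 3 of them fell there, against 491 of 16705 genes. The lymphocyte markers CD3E and CD79A were at 0 in the first batch and in the control and IL-1β gels of the second. The summed leukocyte list had a higher median with IL-1β in the first batch (578 against 128 normalised counts), although its ranges overlapped (311 to 3713 against 58.3 to 2076). PTPRC, CSF1R and CD163 were at 3.64 or less there, and CD14 ranged from 0 to 2811 with IL-1β and from 0 to 1947 in controls. Only 1 of the 8 genes was tested, CD68, which rose by a log2-fold change of 2.64 (limma adjusted p = 0.00265). In the second batch CD68 had a log2-fold change of 1.89 with IL-1β (limma adjusted p = 0.586, and 0.0369 with line as a block). All 4 smooth muscle and pericyte markers had lower means with IL-1β in the first batch, summing to 11690.3 to 24825 against 25864 to 87760 normalised counts. Of these, 3 were DE (7.9% of all genes DE and lower), or 4 with line as a block (10.2%). In the second batch all 4 had lower means and none passed on adjusted p. With line as a block 1 was DE there, against 433 of 16705 genes DE and lower. The part of these markers in the lipid gene results was not tested. In bulk RNA, fewer cells of a type and less RNA per cell cannot be told apart.

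In the first batch, IL-1β was compared with control to ask how these lipid genes stand after 14 days of the cytokine. The means of 28 of the 31 genes were higher with IL-1β, against 49.7% of the 14719 genes tested, and their median log2-fold change was 0.68 against −0.0034 over all genes. A gene is called DE here at a Benjamini-Hochberg adjusted p below 0.05 over all genes tested with a log2-fold change of at least 1 in either direction, by limma on log2(normalised count + 1), a scale that understates changes of low genes. DE genes with higher expression numbered 7, which were ACAT2, FDPS, TM7SF2, EBP, SCD, ELOVL6 and ABCA1, against 4.91% of all genes. None of the 31 genes was DE with lower expression, against 7.9% of all genes, and 1, AACS, was lower at an unadjusted p below 0.05 (20.6% of all genes). On adjusted p alone 17 rose (13.1% of all genes) and 1 fell (14.6%), but 8 rose without line 2, 8 without line 4 and 9 without line 5. The shares of all genes without these lines are not given here, so the lower counts are not read as particular to the set. With tenocyte line as a block, 22 rose (20.9% of all genes) and 9 were DE with higher expression (6% of all genes), the added DE genes being STARD4 and ABCG1. Every line was higher with IL-1β for 20 genes, against 24.8% of all genes.

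**Figure D1:**
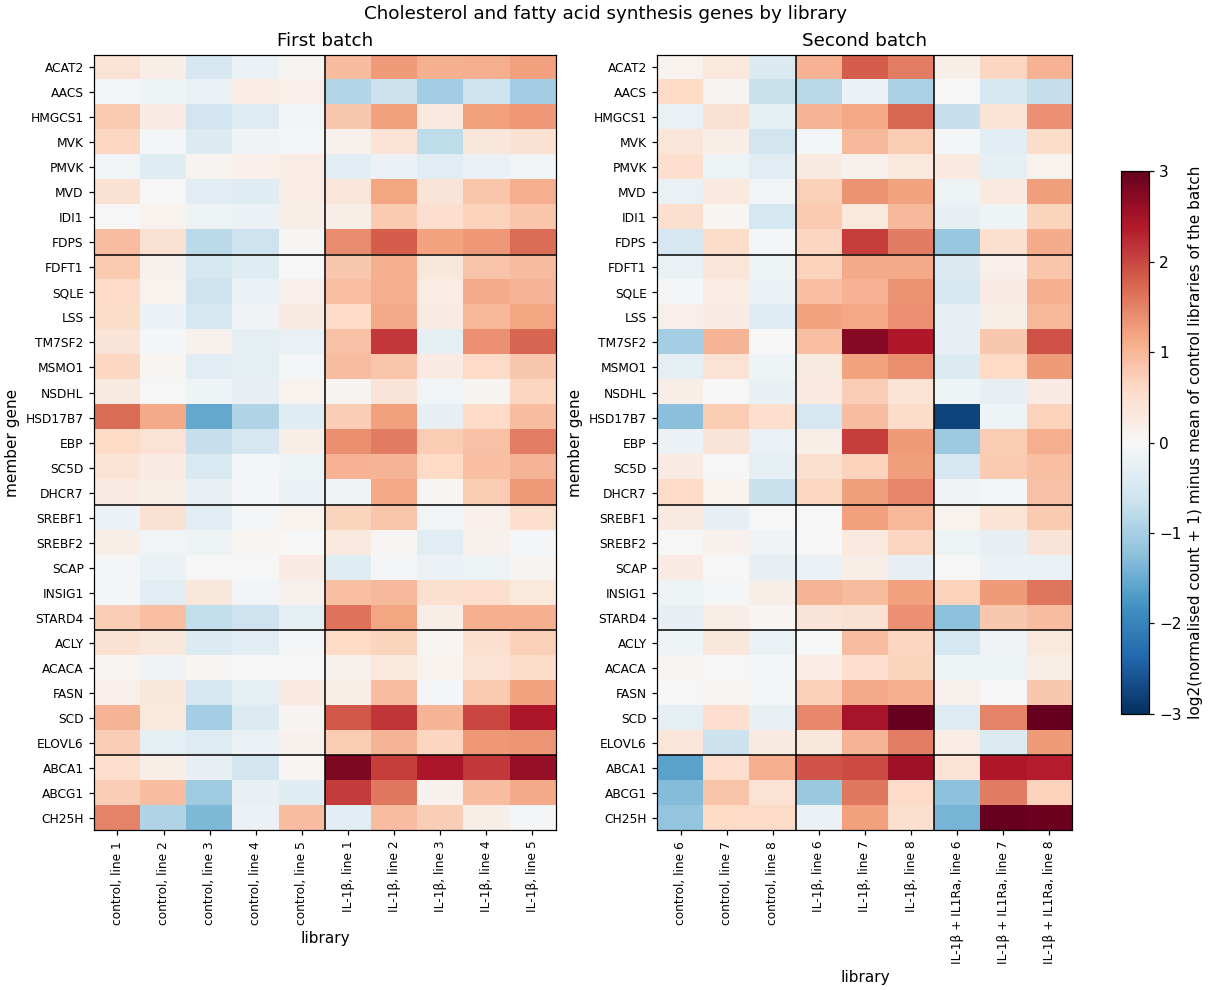
The map shows each gene (rows, ordered by role) in each library (columns), coloured by log2(normalised count + 1) minus the mean of the control libraries of the same batch; the darkest colours are at or beyond the ends of the scale. ABCA1 and SCD were red in all 5 IL-1β libraries of the first batch, AACS was blue in all 5, and in the gels with IL1Ra line 6 was mostly pale or blue while line 8 was mostly red.

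Among the 8 genes of the mevalonate steps, 6 had higher means with IL-1β in the first batch, with a median log2-fold change of 0.68. On adjusted p 5 rose (13.1% of all genes) and 1 fell (14.6%). ACAT2 encodes the cytosolic thiolase that joins acetyl-CoA units at the start of the pathway. Its normalised counts in controls of lines 1 to 5 were 3609, 3035, 1867, 2309 and 2804, and with IL-1β they were 5153, 6402, 5549, 5669.6 and 6253. Every IL-1β gel lay above every control, and the log2-fold change was 1.12 ± 0.16 (SE, n = 5 lines, limma adjusted p = 8.19e-04). FDPS, which makes farnesyl diphosphate, the last shared precursor of sterols and prenyl groups, was at 4842, 3509, 1463, 1648 and 2617 in controls and at 6844, 9006, 5857, 6282 and 8177 with IL-1β. Its groups did not overlap either, and line 1, with the highest control, moved least. The log2-fold change of FDPS was 1.49 ± 0.30 (limma adjusted p = 0.00536).

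The mevalonate genes did not all move in the same direction. AACS, which feeds acetoacetate into the same acetoacetyl-CoA pool, was described per library because it went the other way, a choice made after its values were seen. Its controls were at 6914, 6652, 6289.5, 8511 and 8116 normalised counts and its IL-1β gels at 3949, 4633, 3535, 4697 and 3500.4. Every IL-1β gel was below every control (10.2% of all genes), and AACS fell by 0.85 on the log2 scale (SE 0.12, limma adjusted p = 8.25e-04), short of the fold limit for DE. Between the ends of the pathway, HMGCS1 (the synthase that makes HMG-CoA) rose by a log2-fold change of 0.97, MVD (mevalonate diphosphate decarboxylase) by 0.77 and IDI1 (the isomerase of isopentenyl diphosphate) by 0.60. The kinases MVK and PMVK, which phosphorylate mevalonate in turn, had log2-fold changes of 0.11 (95% interval −0.44 to 0.66) and −0.23 (−0.48 to 0.02), with limma adjusted p of 0.768 and 0.162.

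All 10 analysed genes of the squalene to cholesterol steps had higher means with IL-1β in the first batch, with a median log2-fold change of 0.81. On adjusted p 7 rose (13.1% of all genes). EBP, the sterol isomerase of the later steps, was at 1580.3, 1407, 640.0, 733 and 1167 normalised counts in controls of lines 1 to 5 and at 2738, 3052, 1775, 1924 and 3029.7 with IL-1β. The groups of EBP did not overlap, and the log2-fold change was 1.23 ± 0.27 (limma adjusted p = 0.00795). TM7SF2, a sterol reductase, was at 233, 172, 193, 147 and 154 in controls and at 329, 779, 148, 461 and 596 with IL-1β. The TM7SF2 groups overlapped because line 3 was lower with IL-1β while the other 4 lines were higher. Its log2-fold change of 1.17 ± 0.39 was just past the threshold (limma adjusted p = 0.0460) and was not past it when line 1, 2, 4 or 5 was left out, with adjusted p between 0.0712 and 0.183.

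The remaining steps of the branch moved by smaller amounts. SC5D, the desaturase near the end of the branch, rose by a log2-fold change of 0.92 (limma adjusted p = 0.00242) with no overlap between groups. SQLE (squalene epoxidase) rose by 0.87, LSS (lanosterol synthase) by 0.82, FDFT1 (squalene synthase) by 0.80 and MSMO1 (a methylsterol oxidase) by 0.68. DHCR7, the reductase of the last step, had a log2-fold change of 0.63, HSD17B7 of 0.64 and NSDHL of 0.22, and these 3 were not past the threshold (limma adjusted p = 0.106, 0.445 and 0.307). HSD17B7 was the most scattered gene of the branch, with the largest standard error (0.58), controls from 122 to 1138 and IL-1β gels from 298 to 833 normalised counts. Across the mevalonate and later steps together, the 6 genes of all 31 with IL-1β gels wholly above controls included ACAT2, FDPS, EBP and SC5D, against 9.34% of all genes.

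**Figure D2:**
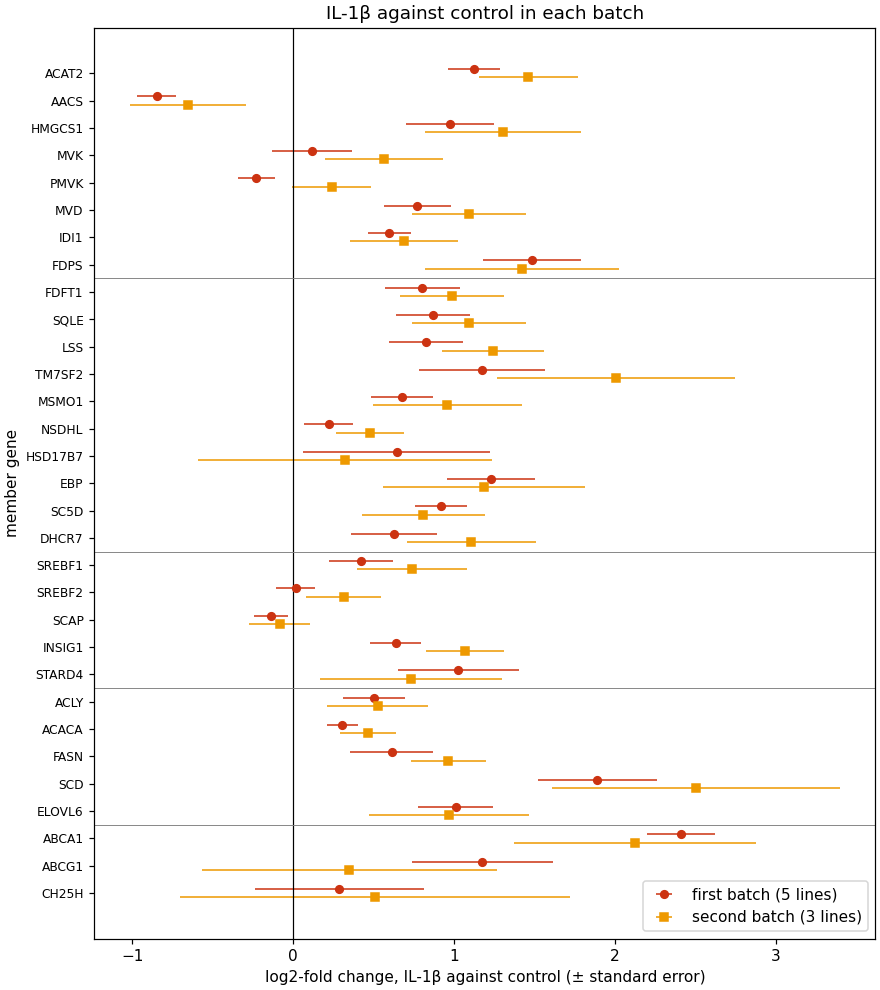
Points give the log2-fold change of each gene with IL-1β against control and bars give its standard error, with circles for the first batch (5 lines) and squares for the second (3 lines); horizontal lines separate the role groups. Most points lie right of 0, AACS lies left of it in both batches, and the bars of the second batch are longer for most genes.

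Of the 5 regulators and carriers, 4 had higher means with IL-1β in the first batch, with a median log2-fold change of 0.42. On adjusted p 1, INSIG1, rose (13.1% of all genes), or 3 with line as a block (20.9%). SREBF2, the transcription factor most tied to sterol synthesis, was at 13198, 10989, 10449, 12229 and 11636 normalised counts in controls of lines 1 to 5 and at 14281, 12032, 9228, 12809.7 and 11230.4 with IL-1β. The groups overlapped almost completely, and the log2-fold change was 0.02 with a 95% interval of −0.25 to 0.28 (limma adjusted p = 0.939). Its sign flipped under other scalings, so no direction is given. SCAP, the escort of both factors, had a log2-fold change of −0.14 (−0.37 to 0.10).

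SREBF1, the factor most tied to fatty acid synthesis, was at 893, 1386, 792, 955 and 1074 in controls and at 1589.6, 1788, 952, 1111 and 1441 with IL-1β. It was higher in 5 of 5 lines, although the groups overlapped. The log2-fold change of 0.42 ± 0.20 had a limma adjusted p of 0.144, and of 0.0172 with line as a block. INSIG1, the retention protein and itself a target of the SREBPs, was at 4159, 3413, 5403, 4086 and 4688 in controls and at 8101, 8389, 6003, 6156 and 5319.9 with IL-1β. Lines 1 and 2 were the highest IL-1β gels, and the gel of line 5 fell just below the control of line 3. INSIG1 rose by a log2-fold change of 0.64 ± 0.16 (limma adjusted p = 0.0129).

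STARD4 carries cholesterol between membranes inside the cell. It was at 359, 402, 128, 139.7 and 179 normalised counts in controls and at 669, 488, 245, 457 and 449 with IL-1β. Each line was higher with IL-1β, but the lines differed so much at the start that the IL-1β gel of line 3 lay below the controls of lines 1 and 2. The log2-fold change was 1.03 ± 0.38 with a limma adjusted p of 0.0665, and of 0.00861 with line as a block.

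All 5 fatty acid synthesis genes had higher means in the first batch, with a median log2-fold change of 0.61. On adjusted p 3 rose (13.1% of all genes), or 5 with line as a block (20.9%). SCD introduces the double bond that makes oleate. It was at 9883, 6093, 2391, 3656 and 5141 normalised counts in controls and at 17643, 21560.0, 9822, 19582 and 25913 with IL-1β. Only the IL-1β gel of line 3 lay below a control, that of line 1, and by a small margin. The log2-fold change of SCD was 1.89 ± 0.37, a 3.71-fold difference (limma adjusted p = 0.00416). ELOVL6, which lengthens palmitate, was at 556, 279, 256, 291 and 365 in controls and at 569, 675, 522, 826 and 844 with IL-1β.

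For ELOVL6, line 1 had the highest control and hardly moved, while the other 4 lines were clearly higher with IL-1β. Its log2-fold change was 1.01 ± 0.23 (limma adjusted p = 0.00934), close enough to the fold limit that the call was lost without line 2, 4 or 5. ACACA, the carboxylase that commits acetyl-CoA to fatty acids, rose by only 0.30 (limma adjusted p = 0.0380) with no overlap between groups. FASN, the fatty acid synthase, and ACLY, which makes cytosolic acetyl-CoA from citrate, had log2-fold changes of 0.61 and 0.50. Their limma adjusted p were 0.104 and 0.0775, and 0.0172 and 0.0144 with line as a block. The adipocyte markers LEP (at 0 in every library) and PLIN1 (8.68 or less in the first batch) gave little signal, but ADIPOQ ranged from 74.3 to 2736 in controls and from 293 to 2308 with IL-1β. Its log2-fold change was 1.10, with a limma adjusted p of 0.400 that became 0.0345, and so DE, with line as a block. In the second batch ADIPOQ had a log2-fold change of −0.47 with IL-1β (limma adjusted p = 0.968, and 0.763 with line as a block). The part of ADIPOQ in the result was not tested.

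ABCA1, the exporter that loads cholesterol onto apolipoprotein A-I, had the largest difference of the 31 genes in the first batch. All 3 genes of efflux and oxysterol formation had higher means there. On adjusted p 1 rose (13.1% of all genes), or 2 with line as a block (20.9%). ABCA1 was at 3595, 2885, 2092, 1706 and 2610.4 normalised counts in controls of lines 1 to 5 and at 17317, 10464, 13515, 10942 and 15277 with IL-1β. The lowest IL-1β gel was far above the highest control. The log2-fold change was 2.41 ± 0.21, a 5.31-fold difference (limma adjusted p = 5.70e-05). ABCG1, which exports cholesterol to high-density lipoprotein, was at 2146, 2469.8, 613, 1101 and 1007 in controls and at 5563, 3846, 1411, 2464 and 2859.7 with IL-1β.

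ABCG1 was higher in 5 of 5 lines, but line 3 with IL-1β was below 2 controls. The log2-fold change was 1.18 ± 0.44 with a limma adjusted p of 0.0678, and of 8.97e-04 with line as a block. CH25H, which hydroxylates cholesterol to an oxysterol, was at 411, 78.6, 57.6, 130.2 and 282 in controls and at 116, 278, 246, 167 and 141 with IL-1β. The lines of CH25H disagreed, with 3 higher and 2 lower, and the log2-fold change was 0.29 (95% interval −0.87 to 1.45). CH25H was described per library after its values were seen.

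Lines differed in how far the sterol synthesis genes moved. The median log2 ratio of IL-1β over control across the 18 analysed genes of sterol synthesis was 0.03 in line 1, 0.95 in line 2, 0.74 in line 3, 1.15 in line 4 and 0.95 in line 5. Line 1 stood apart, and its control already held these genes at a median of 0.50 above the control mean on the log2 scale, the highest of the 5 controls. Its IL-1β gel, at 0.77 above that mean, lay among those of the other lines, which were at 0.24 to 1.11. The fatty acid genes also had their lowest median ratio in line 1, at 0.05. Regulators and carriers did not share this pattern, with a median of 0.83 in line 1 and 0.15 to 0.28 in lines 2 to 5. Nor did ABCA1, since its log2 ratio was 1.86 or more in each of the 5 lines.

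**Figure D3:**
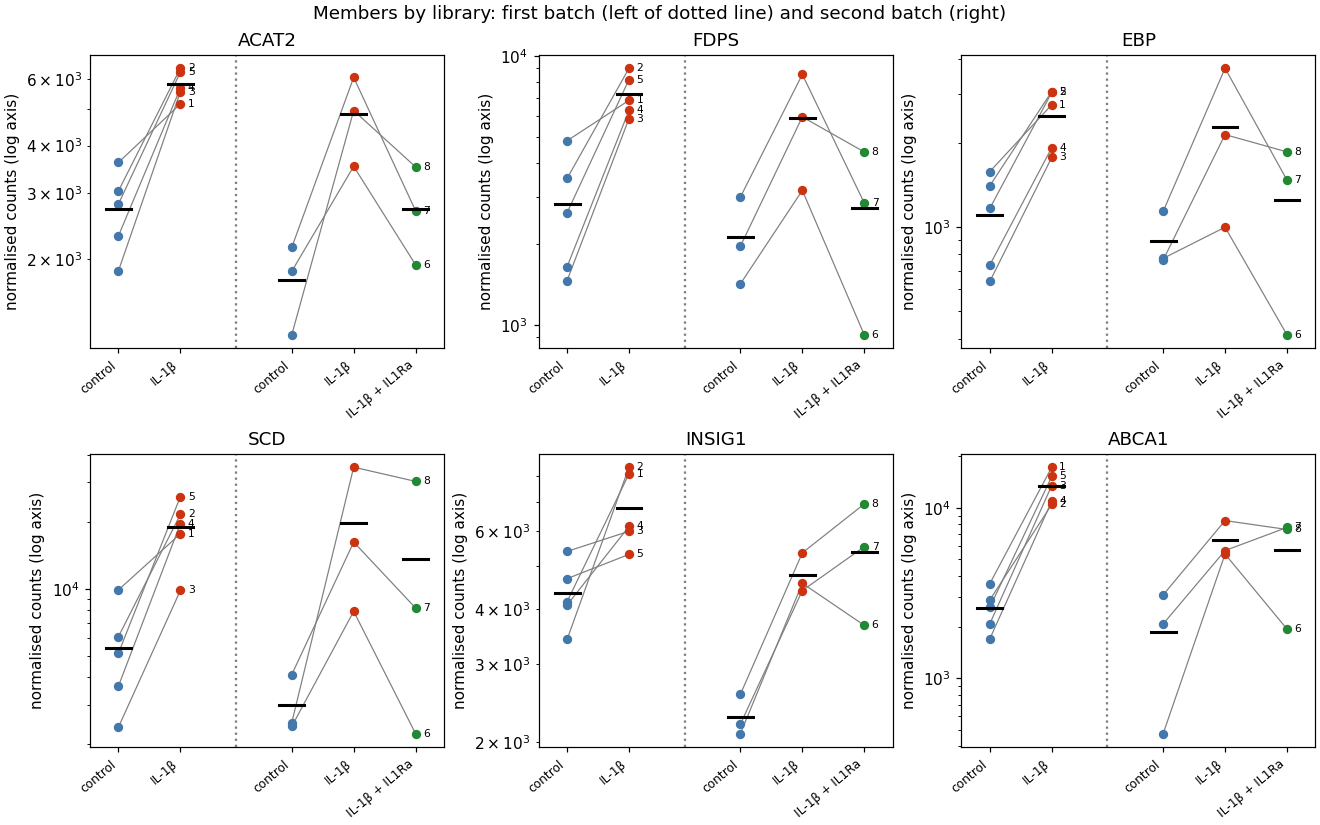
Each panel gives the normalised counts of 1 gene on a log axis, with 1 point per library, a thin line joining the gels of 1 tenocyte line, the line number at the right and a black bar for the group mean; the first batch is left of the dotted line and the second right of it. ACAT2, FDPS, EBP and SCD were lower with IL1Ra than with IL-1β alone in each of lines 6 to 8, whereas INSIG1 was lower in line 6 only and ABCA1 in lines 6 and 8.

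In the second batch the same contrast was available in 3 other lines. The means of 29 of 31 genes were higher with IL-1β, against 49.3% of the 16705 genes tested, and the median log2-fold change was 0.96 against −0.0084 over all genes. With limma none was DE, against 0.269% of all genes called higher and 0.0718% called lower. At an unadjusted p below 0.05 there were 14, all higher, against 5.82% of all genes. The IL-1β gels lay wholly above the controls for 16 genes, against 8.82% of all genes. With line as a block 5 genes were DE (2.59% of all genes), namely ACAT2, FDPS, TM7SF2, INSIG1 and ABCA1, and FASN also passed on the blocked adjusted p (0.0452), making 6 genes against 3.16% of all.

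ACAT2 was at 1861, 2153 and 1265 normalised counts in controls of lines 6 to 8 and at 3524, 6055 and 4948 with IL-1β. The groups did not overlap, and the log2-fold change was 1.46 ± 0.31 (limma adjusted p = 0.113, with the block 0.0282). FDPS was at 1423, 2992 and 1964 in controls and at 3166, 8542 and 5938 with IL-1β, which gave 1.42 ± 0.60 on the log2 scale (limma adjusted p = 0.426, with the block 0.0462). The lowest IL-1β gel of FDPS, that of line 6, was just above the highest control, that of line 7.

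TM7SF2 was at 47.6, 199.7 and 96.6 normalised counts in controls and at 182, 647 and 516 with IL-1β. Each line was higher, the groups overlapped through line 6, and the log2-fold change was 2.00 ± 0.74 (limma adjusted p = 0.342, with the block 0.0294). EBP was at 774, 1139 and 763 in controls and at 999.6, 3697 and 2142 with IL-1β, with the smallest difference in line 6 and a log2-fold change of 1.19 ± 0.63 (limma adjusted p = 0.534). The other sterol enzymes whose log2-fold change was above 1 were HMGCS1 (1.30), LSS (1.24), DHCR7 (1.11), MVD (1.09) and SQLE (1.09), none of them past the limma threshold with or without the block. AACS was lower in 3 of 3 lines, at 4510.4, 3183 and 1872 in controls and 1686, 2669 and 1536 with IL-1β (log2-fold change −0.65, limma adjusted p = 0.557).

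INSIG1 was at 2087, 2194 and 2563 normalised counts in controls of lines 6 to 8 and at 4576, 4403 and 5362 with IL-1β. All 3 lines were close to each other in both groups, and the log2-fold change was 1.07 ± 0.24 (limma adjusted p = 0.125, with the block 0.0223). SREBF1 was at 486, 343 and 401 in controls and at 407, 948 and 809 with IL-1β, higher in lines 7 and 8 only. SREBF2 was at 4928, 5422 and 4619.5 in controls and at 4967, 6103 and 7833 with IL-1β, with a log2-fold change of 0.31 (95% interval −0.22 to 0.85). STARD4 was at 193, 262 and 238 in controls and at 298, 313 and 593 with IL-1β, so its groups did not overlap (log2-fold change 0.73, limma adjusted p = 0.734).

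SCD was at 2408, 4116 and 2504 normalised counts in controls and at 7914, 16193 and 35149 with IL-1β. Line 8 had the highest value, and the log2-fold change was 2.50 ± 0.90 (limma adjusted p = 0.324, with the block 0.0554). ELOVL6 was at 379, 187 and 352 in controls and at 372, 598 and 842 with IL-1β, so line 6 did not rise while lines 7 and 8 were higher. ABCA1 was at 474, 2085 and 3086 in controls and at 5356, 5615 and 8418 with IL-1β. Line 6 had by far the lowest control of ABCA1, the groups did not overlap, and the log2-fold change was 2.12 ± 0.75 (limma adjusted p = 0.321, with the block 0.0312). ABCG1 was at 489, 2171 and 1625 in controls and at 555, 3591 and 1794 with IL-1β, a small difference in lines 6 and 8 and a larger one in line 7. CH25H was at 70.5, 244 and 242 in controls and at 141, 379.5 and 224 with IL-1β, with the groups overlapping.

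Gels with IL-1β and IL1Ra were compared with both other groups, which asks how far the lipid genes stand from control when the antagonist is added. Both comparisons share libraries with the one of IL-1β against control, so their values are given side by side. Against control, 24 of the 31 genes had higher means (51.1% of all genes) with a median log2-fold change of 0.28, and without line 8 that median was −0.18. With limma none was DE without the block (0.012% of all genes higher, 0% lower) or with it (0.21% higher), and 2 genes, INSIG1 and ABCA1, were higher at an unadjusted p below 0.05 (2.76% of all genes). Against IL-1β alone, 28 of the 31 had lower means (51.1% of all genes had higher means), with a median of −0.60 against 0.0088 over all genes. None was DE with limma without the block (0% of all genes) or with it (0.00599% higher), and 7 were lower at an unadjusted p below 0.05 (ACAT2, FDFT1, SQLE, LSS, NSDHL, ACACA and FASN), against 1.26% of all genes. In every line 19 genes were lower than with IL-1β alone, against 16.8% of all genes, and for ACAT2, LSS, NSDHL and ACACA the groups did not overlap, against 3.35% of all genes.

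The 3 lines with IL1Ra stood at different distances from their controls. The median log2 ratio of IL-1β with IL1Ra over control across the 18 sterol synthesis genes was −0.43 in line 6, −0.10 in line 7 and 1.21 in line 8. In line 8, 17 of the 18 were above control, against 3 in line 6 and 5 in line 7. The corresponding medians for IL-1β alone were 0.66, 0.77 and 1.51, so line 8 was also the highest there. IL1Ra against IL-1β alone gave −1.01, −0.99 and −0.29, lower in each line and least in line 8.

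**Figure D4:**
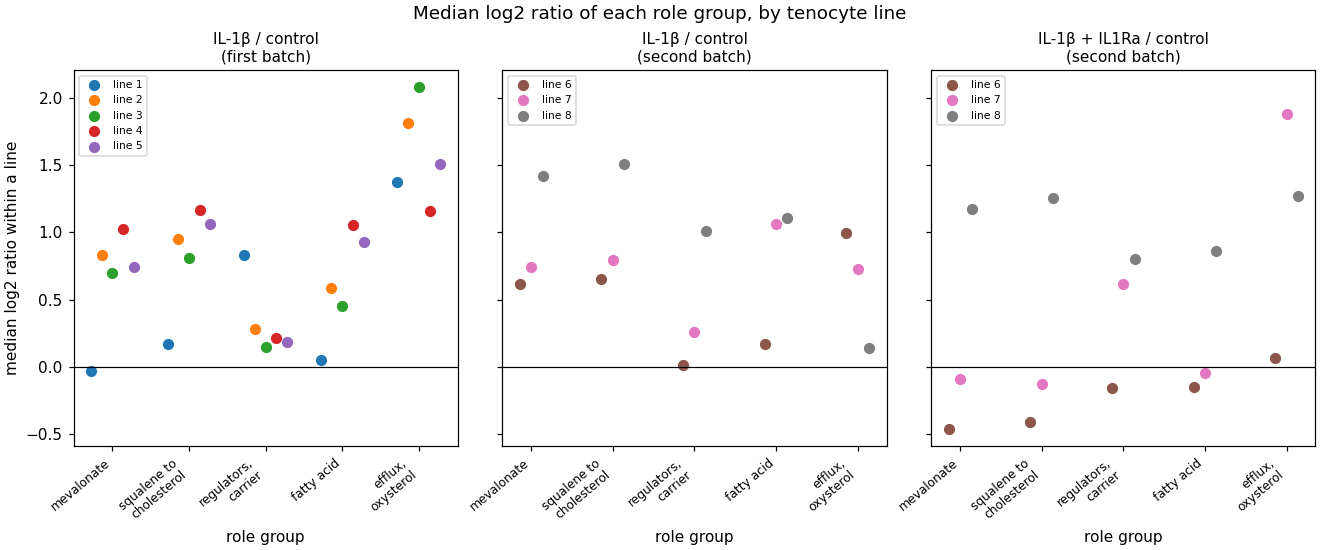
Points give the median log2 ratio of each role group within 1 tenocyte line (colour), with panels for IL-1β over control in the first batch, IL-1β over control in the second, and IL-1β with IL1Ra over control in the second. In the right panel the sterol and fatty acid groups of lines 6 and 7 lie below 0 while line 8 lies at 0.80 or above in every group.

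Single genes did not all follow this split. With IL1Ra added, lines 6 to 8 had 1936, 2689.8 and 3512 normalised counts of ACAT2, each above its own control, and its log2-fold changes were 0.62 ± 0.31 against control and −0.84 ± 0.31 against IL-1β. FDPS was at 920.2, 2845 and 4399.9 with IL1Ra, with lines 6 and 7 below their own controls and line 8 above. TM7SF2 was at 81.3, 172 and 368, and EBP at 413, 1474 and 1858, with line 8 above its control for both genes, line 6 for TM7SF2 only and line 7 for EBP only. SCD was at 2233, 8192 and 30338, so that line 8 remained near its IL-1β value of 35149, line 7 lay above its control and line 6 near its control value of 2408. ELOVL6 was at 341, 221 and 715, with lines 7 and 8 above their controls. SREBF1 was at 435, 541 and 700.2 and SREBF2 at 4508, 4215 and 6458, and neither differed from control past the limma threshold. AACS was at 2970.3, 2163 and 1815, below its own control in each line.

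INSIG1 did not have a lower mean with IL1Ra than with IL-1β alone, and the differences of ABCA1 and ABCG1 were small beside their errors. INSIG1 was at 3674, 5537 and 6920.4 normalised counts with IL1Ra, every gel above every control, the only member for which those groups did not overlap (5.79% of all genes). Its log2-fold change was 1.19 ± 0.24 against control (limma adjusted p = 0.369, with the block 0.0636) and 0.13 ± 0.24 against IL-1β alone. ABCA1 was at 1947, 7669 and 7465 with IL1Ra, and line 6 alone dropped well below its IL-1β gel. The log2-fold change of ABCA1 was 1.73 ± 0.75 against control (limma adjusted p = 0.879) and −0.39 (95% interval −2.12 to 1.33) against IL-1β alone. ABCG1 was at 513, 3509 and 1939 with IL1Ra, near the IL-1β gel of the same line in each case (log2-fold change −0.01, 95% interval −2.12 to 2.09). STARD4 was at 97.2, 402 and 433, with line 6 the lowest gel of the batch.

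CH25H with IL1Ra was at 60.2, 1964 and 1251 normalised counts. Lines 7 and 8 were above every control and every IL-1β gel of the batch, whereas line 6 was the lowest of all 9 gels. The log2-fold change against control was 1.72 with a 95% interval of −1.06 to 4.49 (limma adjusted p = 1.00), so the 3 lines did not give a stable direction.

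Other genes of these pathways were counted over 3 lists, to be read against the shares of all genes in the first batch. On adjusted p 13.1% of all genes rose and 14.6% fell, or 20.9% and 22.4% with line as a block. Of 13 tested genes of sterol synthesis and uptake outside the set, 6 rose and 1 fell on adjusted p in the first batch. Of these, 1 was DE higher and 1 DE lower. With line as a block 5 rose and 2 fell. Only 7 of the 13 had higher means, and their median log2-fold change was 0.01, against 0.68 for the 31 genes of the set. VLDLR, the receptor for very-low-density lipoprotein, fell by 1.37 on the log2 scale (limma adjusted p = 0.00562), and in the second batch its log2-fold change was 0.13 with overlapping groups, the difference between batches not being tested. Of 12 tested genes of fatty acid and phospholipid synthesis, 4 rose and 2 fell, or 5 and 2 with line as a block. Their median log2-fold change was 0.17. The desaturases FADS1 and FADS2 rose by log2-fold changes of 1.23 and 1.38 (limma adjusted p = 0.00616 and 0.0162), and in the second batch the values were 1.10 and 1.47, DE only with line as a block.

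GPAM, the acyltransferase that starts glycerolipid synthesis, had the largest difference in these lists. It was at 1033 to 1741 normalised counts in controls and 6667 to 19335 with IL-1β in the first batch, a log2-fold change of 2.94 (limma adjusted p = 6.43e-05). In the second batch GPAM was at 623 to 1042 in controls, 6586 to 15219 with IL-1β and 2541 to 11745 with IL1Ra added. Its log2-fold change was 3.52 for IL-1β against control (limma adjusted p = 0.0493) and 2.76 for IL-1β with IL1Ra against control (limma adjusted p = 0.365, with the block 0.0464). Of 17 tested genes of sterol handling and LXR response, 4 rose and 2 fell in the first batch, or 5 and 3 with line as a block. Their median log2-fold change was 0.02. SMPDL3A, a phosphodiesterase regulated by LXR, was the only DE gene, with a log2-fold change of 1.82 (limma adjusted p = 0.0019). In the second batch 16 genes of this list were tested with IL-1β against control. None of them passed on adjusted p, with or without line as a block (3.16% of all genes rose with it).

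All 6 proliferation markers had lower means with IL-1β in the first batch, and 1 fell on adjusted p (14.6% of all genes), or 4 with line as a block (22.4%). The sum of the 6 markers, which include MKI67 and TOP2A, was 3084 to 16629 normalised counts in controls and 1464 to 5689 with IL-1β in the first batch. In the second batch it was 5854 to 10092 in controls, 390 to 6051 with IL-1β and 622 to 2647 with IL1Ra added. The part of cell number or growth state in the values of the lipid genes was not tested.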

How the data were processed

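RNA from 19 libraries of 8 tenocyte lines was sequenced with a stranded mRNA kit. Reads were quantified by the authors with Salmon, which divides ambiguous reads between similar sequences, summarised per gene and normalised with DESeq2 1.36, per the labels. The deposited values are normalised counts (a non-negative signal), in 1 table per batch and scaled separately, and they could not be turned back into whole reads, so no count model was used. Whether gene copies took reads from FDPS or HSD17B7 was not tested. Genes were kept that reached 10 normalised counts in 5 libraries of batch 1 (14719 genes) or in 3 libraries of batch 2 (16705 genes), and were analysed as log2(value + 1) with limma 3.58.1 (lmFit, eBayes with trend) in R 4.3.3, the method having been tested on simulated data. The second batch entered 1 fit of 3 groups. P-values were adjusted over all genes tested. Without the block they measure the spread between lines, and with it the spread left after differences between lines are taken out. Read depth per gene is not known from normalised values.

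Same-numbered gels came from the same line. Within a line, deviations from the group means had correlations between 0.351 and 0.578 for batch 1 and between 0.535 and 0.794 for batch 2, while between lines they lay between −0.356 and 0.288 and between −0.625 and 0.249, so the line pairs the samples and the fit with line as a block is given beside each printed gene or count whose call it changed.

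The members and lists were chosen with earlier results of these data known. Values per library are given for genes DE in any comparison with or without the block, for SREBF1, SREBF2 and INSIG1, and for the 2 genes of each role group with the largest change in the first batch, 12 genes in all, to which AACS and CH25H were added after their values were seen. Other pathway genes are named where DE, apart from a gene that is not reported here. Alternatives covered the pseudocount, filter, scaling, trend, fold limit, block, fitting only the groups compared and leaving out each line.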

Additional observations from a re-analysis of the deposited data

How the results depend on the processing

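The median log2-fold change of the 31 genes with IL-1β kept its sign under every alternative run in both batches. In the first batch 18 genes changed on adjusted p alone, without the fold limit. Leaving out 1 line at a time gave 8 to 18 genes higher on adjusted p there, with 8 without line 2 or line 4. This count was added after the data were seen, and the share of all genes beside it is not given here. ELOVL6 lost its call with a pseudocount of 5, after rescaling libraries to the same sum, or without line 2, 4 or 5, and TM7SF2 also without the filter, without trend or after rescaling. The log2-fold change of SREBF2 was −0.0016 after rescaling, −0.011 after quantile normalisation and −0.012 to 0.065 when leaving out lines, and that of CH25H −0.16 to 0.81.

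With the replicate block (line), which pairs the samples, the second batch gave 5 DE genes and 6 on adjusted p with IL-1β, against 0 without it, and it changed no call of the 31 genes with IL1Ra. For IL-1β with IL1Ra against control, leaving out lines moved the median from −0.18 (without line 8) to 0.63 (without line 6), FDPS from −0.35 to 0.55, EBP from −0.27 to 0.83, SREBF2 from −0.25 to 0.18 and STARD4 from −0.18 to 0.74. Against IL-1β alone, AACS ranged from −0.031 to 0.53, ABCA1 from −0.82 to 0.14 (positive without line 6) and ABCG1 from −0.073 to 0.039, and ABCG1 was 0.090 after rescaling and 0.011 after quantile normalisation. The cause of these shifts was not tested. Of the values of named genes under all alternatives, 648 kept both direction and side of the threshold, 12 fell below it, 9 passed it and 17 changed sign.

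With 5 and 3 lines and normalised values only, sequencing depth per gene is not known, and a difference that missed the threshold is not shown to be absent.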
